A study of Mus musculus with 14 samples.

Results

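The enzymes described here make amino acids that a cell can also take up, and the one-carbon units drawn from serine. The set named 10 gene symbols, *Asns*, *Psat1*, *Phgdh*, *Psph*, *Shmt2*, *Mthfd2*, *Aldh18a1*, *Pycr1*, *Cth* and *Cbs*. They were grouped by what their products do, and chosen with earlier results of these data known. Every array probe annotated to one of these symbols was taken, which gave 14 probes for 9 symbols of the 16593 symbols on the array. *Pycr1* had 0 probes. Of the 9 symbols, 8 had a probe that passed the filter for low values (detected on at least 2 of the 14 arrays), among 8025 symbols that did.

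Mouse samples of 5 groups were hybridised to 14 Illumina bead arrays read in a single colour. HTF/MultiBlast (3 arrays) is titled with HTF, a medium, and MultiBlast. The titles do not say whether MultiBlast names a further medium or a kind of embryo. Blastocysts cultured with both ISM1 and ISM2 make up ISM1/ISM2 (3 arrays), and those cultured in a medium named KSOM(aa) form the group of that name (2 arrays). The micromanipulation control (3 arrays) and oviduct (3 arrays) are named in the labels with no medium. The study asks, by its title, about abnormal blastocysts after sperm injection and culture, and the labels used here name no strain, genotype, age or number of embryos per array. If MultiBlast names a kind of embryo, that kind and the medium cannot be told apart in this group.

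Asparagine synthetase, made from *Asns*, moves an amide group from glutamine onto aspartate. The serine pathway leaves glycolysis at phosphoglycerate and runs through *Phgdh*, *Psat1* and *Psph*. Serine then gives up a carbon to folate in the mitochondrion through *Shmt2* and *Mthfd2*, which feeds the making of purines, thymidylate and, through formate, methyl groups. *Aldh18a1* starts the route from glutamate to proline, which *Pycr1* ends, and *Cbs* and *Cth* pass the sulphur of homocysteine to cysteine. Several of these genes are known targets of ATF4, a transcription factor that cells make more of when amino acids run short.

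The stretch before the transcription start is shown for *Asns*, *Mthfd2*, *Aldh18a1* and *Shmt2*, because these had the largest log2 differences between ISM1/ISM2 and oviduct and each window holds a different set of the patterns searched. The sequences are 250 bases of RefSeq (GRCm38.p6), on the minus strand of the chromosome and written 5′ to 3′ toward the start: chr6:7693210-7693459 for *Asns*, chr6:83317605-83317854 for *Mthfd2*, chr19:40588464-40588713 for *Aldh18a1* and chr10:127522445-127522694 for *Shmt2*. Capitals mark a match on either strand to TGATGNAA, the composite CCAAT-enhancer binding protein and ATF element, to CACGTG, the E-box, or to CCAAT, the CCAAT box.
Asns: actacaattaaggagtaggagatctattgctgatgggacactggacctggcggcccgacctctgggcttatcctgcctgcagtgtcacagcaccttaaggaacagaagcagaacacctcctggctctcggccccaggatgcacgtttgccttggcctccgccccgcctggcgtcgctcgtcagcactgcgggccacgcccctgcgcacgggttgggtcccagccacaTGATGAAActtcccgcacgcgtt
Mthfd2: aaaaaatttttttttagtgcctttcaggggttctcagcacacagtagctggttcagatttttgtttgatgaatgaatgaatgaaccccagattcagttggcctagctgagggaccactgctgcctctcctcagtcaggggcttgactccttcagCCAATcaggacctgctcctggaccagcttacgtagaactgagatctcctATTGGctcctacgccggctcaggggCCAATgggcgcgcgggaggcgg
Aldh18a1: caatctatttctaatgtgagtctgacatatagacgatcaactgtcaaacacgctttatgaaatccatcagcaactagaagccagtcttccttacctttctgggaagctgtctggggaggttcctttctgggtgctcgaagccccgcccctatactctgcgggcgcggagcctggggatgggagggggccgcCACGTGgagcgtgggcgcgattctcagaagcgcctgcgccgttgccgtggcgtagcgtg
Shmt2: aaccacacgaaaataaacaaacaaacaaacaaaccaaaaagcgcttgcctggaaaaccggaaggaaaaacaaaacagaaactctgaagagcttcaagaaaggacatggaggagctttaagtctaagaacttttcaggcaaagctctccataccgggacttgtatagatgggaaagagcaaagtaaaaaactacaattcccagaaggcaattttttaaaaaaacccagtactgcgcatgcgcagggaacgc
RefSeq promoters were found for 9 of the 10 symbols, and *Cth* was not matched. The TGATGNAA pattern was present in *Asns*, beginning 23 bases before the start as TGATGAAA, and in *Pycr1* as TGATGCAA, against 3.45% of 32851 mouse promoters of the same length. CACGTG was present in *Aldh18a1* and *Cbs*, against 6.02% of promoters. CCAAT was present in 6 of the 9, *Cbs*, *Mthfd2*, *Phgdh*, *Psat1*, *Psph* and *Pycr1*, against 33.85% of promoters. The *Shmt2* window held 0 matches. These are matches of letters only, and the 3 patterns do not overlap one another in the printed windows.

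All 14 arrays carried blastocyst transcripts. The trophectoderm regulator *Cdx2* and the pluripotency factor *Nanog* were detected on 14 arrays, those labelled oviduct included, while the oviduct epithelium markers *Ovgp1*, *Pax8*, *Krt5* and *Tppp3* were detected on 0 arrays and *Foxj1* on 3. Median intensity ran from 96.6 to 152, and 33.2% to 39.6% of probes were detected per array. The root mean square SD within a group was taken over the 8669 tested genes and unannotated probes, with 1 probe per gene. On the log2 scale it was 0.298 in HTF/MultiBlast, 0.377 in ISM1/ISM2, 0.572 in KSOM(aa), 0.249 in the micromanipulation control and 0.504 in oviduct. The number of arrays limits the precision. All levels given are normalized log2 intensities, so they compare arrays for a given probe and not one gene with another.

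In ISM1/ISM2 blastocysts 5 of the 8 tested enzymes were lower than in oviduct samples and 0 were higher. They were *Aldh18a1*, *Mthfd2*, *Asns*, *Shmt2* and *Psat1*, with falls of 9.96-fold to 2.32-fold, and they cover asparagine, serine, mitochondrial folate and proline synthesis. The enzymes that make cysteine, *Cth* and *Cbs*, and *Phgdh*, which was close to background, did not pass the threshold (adjusted p under 0.05). Across all 8669 tested genes and unannotated probes, 11.5% were lower and 14.3% higher in the same comparison. The median log2 difference was -1.63 over the 8 enzymes and 0.02 over all features tested.

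*Asns* had levels of 11.16, 10.90 and 10.99 in ISM1/ISM2, against 13.54, 13.44 and 13.69 in oviduct. The groups did not overlap, and the ISM1/ISM2 arrays lay below all 11 other arrays. The log2 difference was -2.54 ± 0.16 (SE; adjusted p = 7.61e-07), a 5.81-fold lower level.

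*Psat1*, the aminotransferase of the serine pathway, had levels of 12.48, 12.41 and 12.52 in ISM1/ISM2, against 13.42, 13.95 and 13.69 in oviduct. Here too the groups were apart, with the smallest spread of any tested enzyme on the ISM1/ISM2 arrays (SD 0.0533). The difference was -1.22 ± 0.19 (SE; adjusted p = 0.00061), a 2.32-fold lower level.

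The mitochondrial folate enzymes fell further than *Psat1*. *Shmt2*, which splits serine into glycine and a folate-bound carbon, had levels of 7.15, 6.92 and 6.63 in ISM1/ISM2, against 9.39, 9.30 and 8.13 in oviduct. *Mthfd2*, which oxidizes that carbon unit, had levels of 7.25, 6.96 and 6.94 in ISM1/ISM2, against 9.31, 10.49 and 10.28 in oviduct. The ISM1/ISM2 arrays were below all oviduct arrays for both genes, and 1 oviduct array was low for each, replicate 3 for *Shmt2* and replicate 1 for *Mthfd2*. The log2 difference was -2.04 ± 0.31 for *Shmt2* (SE; adjusted p = 0.000492) and -2.97 ± 0.28 for *Mthfd2* (SE; adjusted p = 1.11e-05).

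*Aldh18a1* had levels of 7.11, 6.20 and 6.81 in ISM1/ISM2, against 10.66, 10.32 and 9.09 in oviduct. It had the largest difference of the 8 enzymes, -3.32 ± 0.37 (SE; adjusted p = 3.94e-05), 9.96-fold lower, with no overlap between the groups. Its promoter window holds the E-box printed above, and a relation of that match to the levels was not tested. The last enzyme of the proline route, *Pycr1*, could not be followed.

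*Cbs* had levels of 6.80, 7.93 and 7.31 in ISM1/ISM2, against 8.72, 8.17 and 7.77 in oviduct, and the groups overlapped. Its difference of -0.87 ± 0.52 had an interval of -1.99 to 0.25 (95%; adjusted p = 0.24). *Cth* had levels of 4.64, 4.80 and 5.68 in ISM1/ISM2, against 5.25, 6.95 and 5.57 in oviduct, and was detected on 1 ISM1/ISM2 array and 2 oviduct arrays. Its difference was -0.88 ± 0.47 (SE; adjusted p = 0.187), and it passed with array weights (-1.65; adjusted p = 0.00548) and with scaling to the 75th percentile (-1.14; adjusted p = 0.0439). *Phgdh*, the first enzyme of the serine pathway, lay between 4.82 and 5.58 on the 14 arrays and was detected on 2 of them. *Psph*, the last step to serine, was detected on 1 array, an oviduct one, and was not tested. Its levels lay between 4.36 and 5.26. Signals this close to background limit what can be said of *Phgdh*, *Psph* and *Cth*.

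**Figure D1:**
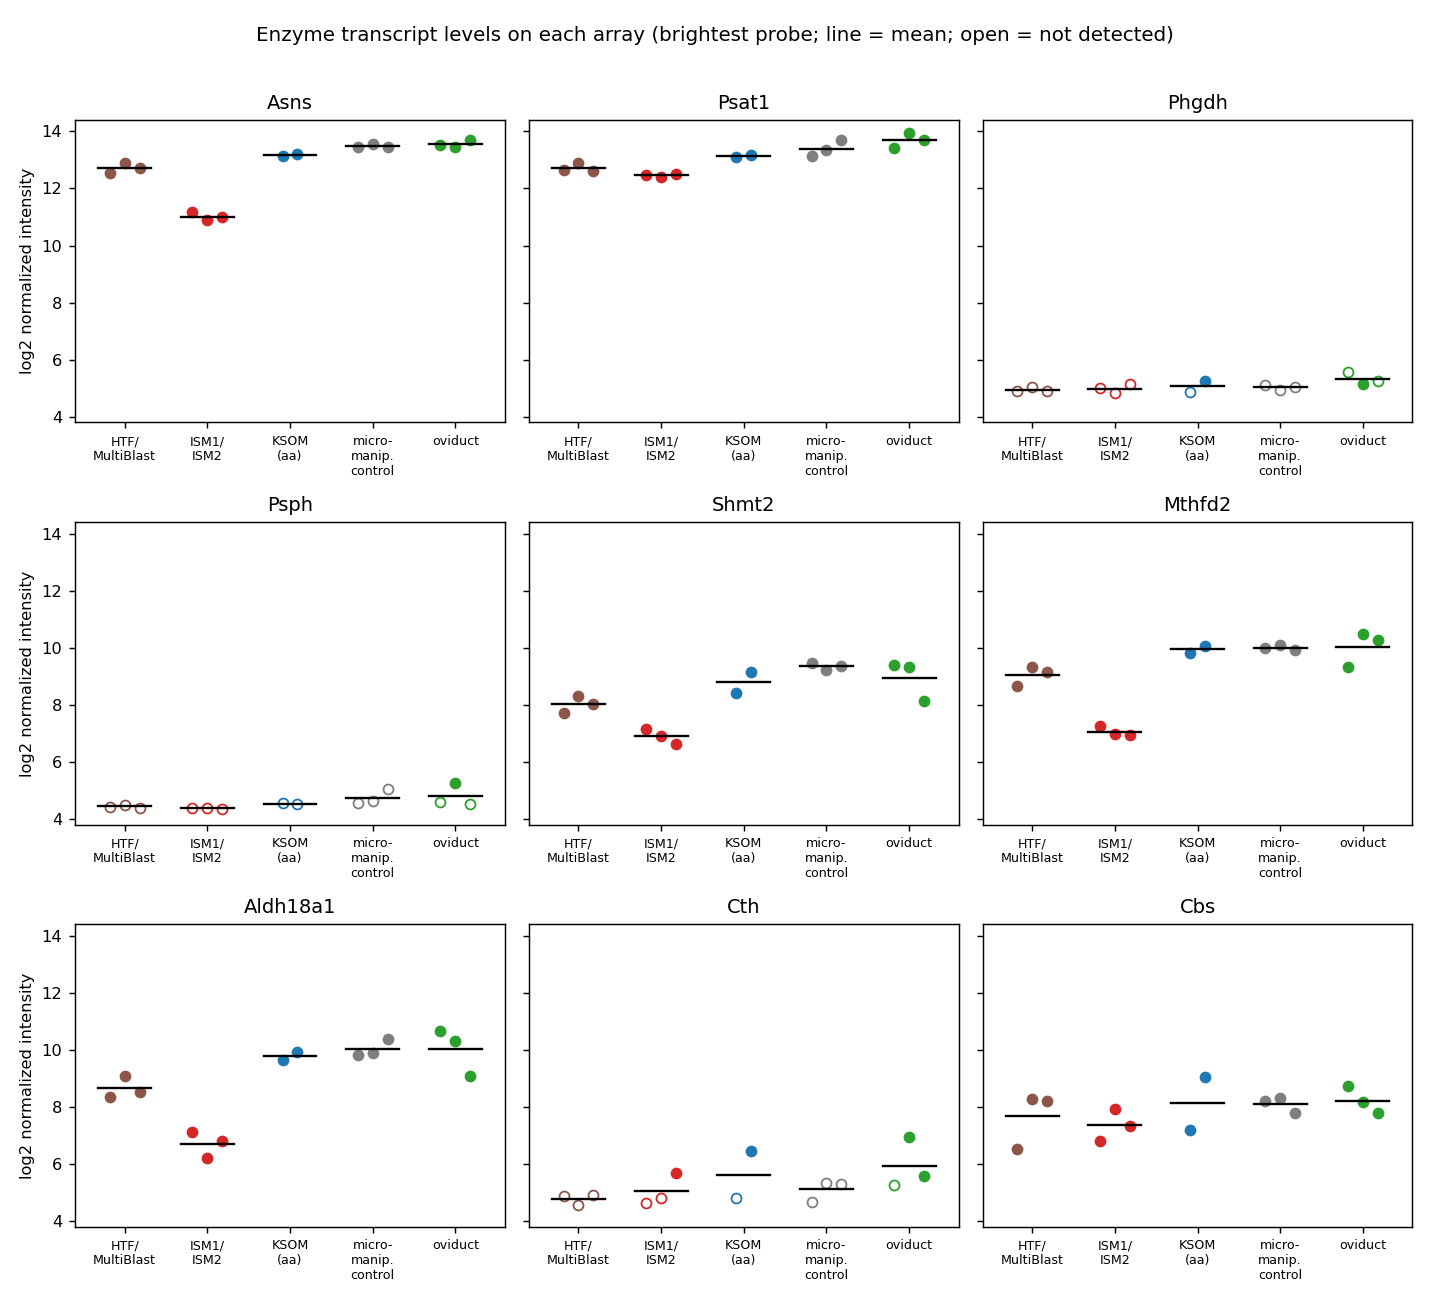
Normalized log2 level (y axis) of the 9 enzymes with a probe (the tested probe with the highest mean, or for *Psph* its untested probe) on every array, with the groups along the x axis, 1 point per array, open where not detected, and a line at each group mean. The 3 ISM1/ISM2 arrays lie below all other arrays for *Asns*, *Shmt2*, *Mthfd2* and *Aldh18a1*, while *Phgdh* stays between 4.82 and 5.58.

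In HTF/MultiBlast 3 of the 8 tested enzymes were lower than in oviduct, *Asns*, *Psat1* and *Aldh18a1*, and 0 were higher. Across all features tested, 2.68% were lower and 3.51% higher. The falls were smaller than 3-fold, from 1.79-fold to 2.59-fold. The median log2 difference was -0.95 over the 8 enzymes and 0.03 over all features tested.

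*Asns* had levels of 12.54, 12.89 and 12.71 in HTF/MultiBlast, below all oviduct arrays, with a log2 difference of -0.84 ± 0.16 (SE; adjusted p = 0.00983). *Psat1* had levels of 12.66, 12.88 and 12.62, also below all oviduct arrays, with a difference of -0.97 ± 0.19 (SE; adjusted p = 0.0114). Without HTF/MultiBlast replicate 1 neither passed (adjusted p = 0.0576 for *Asns* and 0.0557 for *Psat1*), and without replicate 3 *Psat1* did not (0.0558). *Aldh18a1* had levels of 8.36, 9.08 and 8.51, with a difference of -1.37 ± 0.37 (SE; adjusted p = 0.044), and its call was lost in 16 of 24 alternatives, with adjusted p up to 0.175.

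The folate enzymes missed the threshold in HTF/MultiBlast. *Shmt2* had levels of 7.70, 8.31 and 8.01 in HTF/MultiBlast and overlapped the oviduct arrays through oviduct replicate 3. The difference was -0.93 ± 0.31 (SE; interval -1.61 to -0.26; adjusted p = 0.0978), and it was -1.34 (adjusted p = 0.0121) without that oviduct array. *Mthfd2* had levels of 8.66, 9.34 and 9.15 in HTF/MultiBlast and overlapped oviduct through oviduct replicate 1. Its difference was -0.98 ± 0.28 (SE; interval -1.57 to -0.38; adjusted p = 0.0544), and it was -1.33 (adjusted p = 0.00529) without that oviduct array. *Cbs* in HTF/MultiBlast spread from 6.51 to 8.29 and did not pass (adjusted p = 0.567). *Cth* was detected on 0 of the 3 HTF/MultiBlast arrays, with group means at least 1.58-fold apart, and did not pass (adjusted p = 0.165). It passed with array weights (adjusted p = 0.0072) and with scaling to the 75th percentile (adjusted p = 0.0196).

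In KSOM(aa) 0 of the 8 enzymes passed the threshold against oviduct in limma's moderated test, and 1, *Psat1*, had an unadjusted p under 0.05, as did 12.5% of all features (1086 of 8669). Across all features tested, 0.196% were lower and 0.0577% higher. *Asns* had levels of 13.13 and 13.21 in KSOM(aa), with a difference of -0.38 ± 0.18 (SE; interval -0.78 to 0.01). *Psat1* had levels of 13.10 and 13.16, with a difference of -0.55 ± 0.22 (SE; interval -1.02 to -0.09; adjusted p = 0.32). Both genes lay below the 3 oviduct arrays on both KSOM(aa) arrays. *Mthfd2*, at 9.81 and 10.08, differed by -0.08 (interval -0.75 to 0.59), *Aldh18a1*, at 9.63 and 9.92, by -0.25 (interval -1.13 to 0.64), and *Shmt2*, at 8.43 and 9.13, by -0.16 (interval -0.92 to 0.60). A fall as large as that of ISM1/ISM2 lies outside each of these intervals.

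In the micromanipulation control 0 of the 8 enzymes passed against oviduct in limma's moderated test, and 0 had an unadjusted p under 0.05, which 1476 of the 8669 features had. Across all features tested, 0.277% were lower and 0.15% higher. *Asns* had levels of 13.45, 13.55 and 13.44 in the control, with a difference of -0.07 (interval -0.43 to 0.28). *Psat1*, at 13.14, 13.36 and 13.71, differed by -0.29 (interval -0.70 to 0.13). *Mthfd2*, at 9.99, 10.09 and 9.90, differed by -0.03 (interval -0.63 to 0.57), and *Aldh18a1*, at 9.81, 9.88 and 10.39, by 0.00 (interval -0.79 to 0.80). *Shmt2* lay at 9.47, 9.23 and 9.34 in the control, with a difference of 0.41 (interval -0.27 to 1.09).

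**Figure D2:**
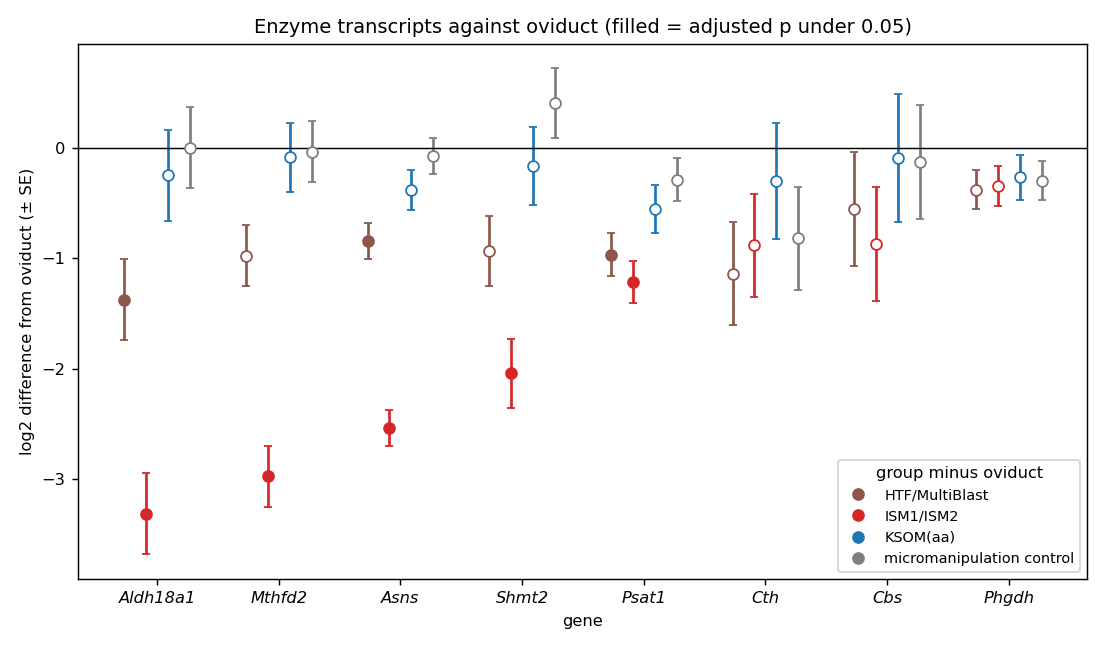
Log2 difference from oviduct (y axis) of each of the 8 tested enzymes (x axis) in the 4 other groups, with bars of 1 SE and filled points where the adjusted p was under 0.05. The largest differences are those of *Aldh18a1* (-3.32), *Mthfd2* (-2.97) and *Asns* (-2.54) in ISM1/ISM2, and the KSOM(aa) and control points lie near 0 for *Mthfd2* and *Aldh18a1*.

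The groups were also set against the micromanipulation control and against each other. These comparisons share arrays with those above and are no separate evidence. Against the control, ISM1/ISM2 had 5 of 8 enzymes lower and 0 higher, the same 5 as against oviduct, where 7.71% of all features were lower. With the 3 control arrays averaged to 1 sample, *Psat1* did not pass (adjusted p = 0.106). The differences were -3.32 ± 0.37 for *Aldh18a1*, -2.94 ± 0.28 for *Mthfd2*, -2.46 ± 0.16 for *Asns*, -2.45 ± 0.31 for *Shmt2* and -0.93 ± 0.19 for *Psat1* (SE). HTF/MultiBlast had 2 of 8 lower than the control, *Asns* at -0.77 ± 0.16 (SE; adjusted p = 0.0282) and *Shmt2* at -1.34 ± 0.31 (SE; adjusted p = 0.0424), where 0.911% of all features were lower. Leaving out single arrays moved this count between 0 and 4. Between KSOM(aa) and the control 0 of 8 passed in limma's moderated test, where 0% of all features were lower at the threshold. At an unadjusted p under 0.05 there were 0 of the 8 enzymes and 426 of the 8669 features (4.91%).

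Between the culture groups, ISM1/ISM2 had 3 of 8 enzymes lower than HTF/MultiBlast, where 3.36% of all features were lower. *Mthfd2* differed by -2.00 ± 0.28, *Aldh18a1* by -1.94 ± 0.37 and *Asns* by -1.70 ± 0.16 (SE; adjusted p = 0.000957, 0.00637 and 0.000109). *Shmt2* just missed the threshold, at -1.11 ± 0.31 (SE; adjusted p = 0.0502). *Psat1* differed by -0.25 (interval -0.67 to 0.17; adjusted p = 0.504).

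ISM1/ISM2 had 4 of 8 enzymes lower than KSOM(aa), where 5.32% of all features were lower. They were *Aldh18a1* (-3.07), *Mthfd2* (-2.89), *Asns* (-2.15) and *Shmt2* (-1.88), while *Psat1* differed by -0.66 ± 0.22 (SE; adjusted p = 0.0662). HTF/MultiBlast against KSOM(aa) gave 0 of 8 at the threshold in limma's moderated test, where 0.0692% of all features were lower at the threshold. At an unadjusted p under 0.05 there were 4 of the 8 enzymes and 802 of the 8669 features (9.25%). These 4 enzymes were *Asns* (-0.46), *Mthfd2* (-0.89), *Aldh18a1* (-1.13) and *Shmt2* (-0.77).

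In the F test across the 5 groups 5 of 8 enzymes passed, where 18.5% of all features did. They were *Asns* (adjusted p = 3.16e-06), *Mthfd2* (4.77e-05), *Aldh18a1* (0.000146), *Shmt2* (0.000822) and *Psat1* (0.00318). For all 5 the group means ran upward from ISM1/ISM2 through HTF/MultiBlast to KSOM(aa), with the control and oviduct above. Among neighbours in that order, ISM1/ISM2 and HTF/MultiBlast differed for *Asns*, *Mthfd2* and *Aldh18a1*. No difference of KSOM(aa) from HTF/MultiBlast below it or from the group above it passed the threshold for any of the 5.

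Markers of embryo cell types also differed between the groups. The summed linear signal of 7 primitive endoderm markers was 7510 to 8877 in HTF/MultiBlast, 4330 to 6090 in ISM1/ISM2, 10671 to 11490 in KSOM(aa), 11953 to 12070 in the control and 9548 to 11491 in oviduct. The sum was lowest in ISM1/ISM2, where all tested enzymes but *Phgdh* and *Cth* had their lowest group mean. The control arrays lay above the oviduct arrays in this sum, while of the tested enzymes only *Shmt2* and *Aldh18a1* averaged higher in the control. Of the markers only *Gata6* averaged higher in ISM1/ISM2 than in oviduct. *Lama1*, a laminin chain, averaged 7.53 in ISM1/ISM2 and 11.71 in oviduct, and *Amn* averaged 8.38 and 10.79 in the same groups. *Sox17* averaged 8.19 in ISM1/ISM2 and 9.67 in oviduct, and *Pdgfra* 9.33 and 10.54. *Sox7* was detected on 0 ISM1/ISM2 arrays and 3 oviduct arrays. *Gata6*, an early regulator of this lineage, averaged 11.93 in ISM1/ISM2 and 11.35 in oviduct, and *Gata4* was detected on 1 of the 14 arrays. The sum of 4 trophectoderm markers was 26033 to 32940 in HTF/MultiBlast, 25742 to 34493 in ISM1/ISM2 and 25726 to 47035 in KSOM(aa). It was 35258 to 36984 in the control and 33370 to 37777 in oviduct. Each of these markers averaged lower in ISM1/ISM2 than in oviduct, most of all *Eomes* (9.22 and 11.21).

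The sum of 3 epiblast and pluripotency markers was lowest in oviduct. It was 3135 to 4293 in HTF/MultiBlast, 4340 to 4690 in ISM1/ISM2, 3359 to 4879 in KSOM(aa), 3692 to 4080 in the control and 2264 to 2626 in oviduct. *Nanog* made up most of it, with an average of 12.04 in ISM1/ISM2 and 10.98 in oviduct, while *Sox2* averaged 5.64 in ISM1/ISM2 and 6.59 in oviduct and *Pou5f1* averaged 8.07 and 8.09. The part of cell makeup in the enzyme results was not tested. In pooled RNA of whole samples, fewer cells of a type and less transcript per cell cannot be told apart.

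*Asns* and *Cbs* could be read on more than 1 tested probe. The second *Asns* probe, ILMN_3006123, gave -3.02 ± 0.20 in ISM1/ISM2 (SE; adjusted p = 8.21e-07) and -0.90 ± 0.20 in HTF/MultiBlast (SE; adjusted p = 0.0234) against oviduct, in a fit of all probes. The third, ILMN_2636755, was detected on 3 of 14 arrays and on 0 ISM1/ISM2 arrays. It was detected on 0 HTF/MultiBlast arrays as well, so only bounds on the fold between group means could be had against oviduct. The means were at least 1.13-fold apart in HTF/MultiBlast (adjusted p = 0.329) and at least 1.04-fold apart in ISM1/ISM2 (adjusted p = 0.0511), and neither difference passed. Both bright *Asns* probes passed and the dim one did not.

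The *Cbs* probes moved together from array to array. On ILMN_1230318 the HTF/MultiBlast arrays read 6.51, 8.29 and 8.20, and on ILMN_2701582 they read 6.68, 8.41 and 8.14. The KSOM(aa) arrays read 7.20 and 9.06 on the first probe and 6.73 and 8.82 on the second. Replicate 1 was the lowest array of HTF/MultiBlast, ISM1/ISM2 and KSOM(aa) on both probes. The SD within these groups on the first probe was 1.00, 0.565 and 1.32, the last from 2 arrays. It was 0.279 in the control and 0.475 in oviduct. Of *Shmt2* and *Cth*, the second probe was detected on 0 arrays and was not tested.

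**Figure D3:**
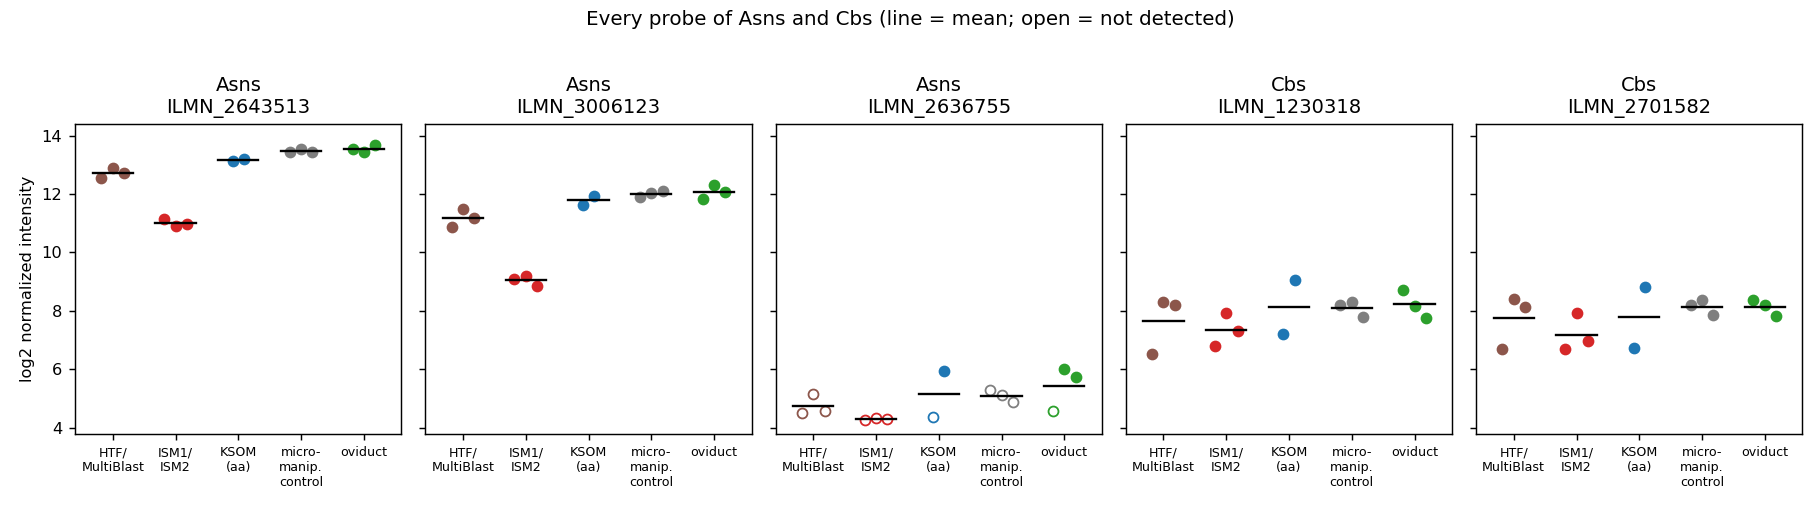
Normalized log2 level (y axis) on the 14 arrays by group (x axis) for the 3 *Asns* probes and the 2 *Cbs* probes, with 1 point per array and open points where the probe was not detected. The *Asns* probes ILMN_2643513 and ILMN_3006123 are lowest on the ISM1/ISM2 arrays, and the *Cbs* probes show the same low replicate 1 in HTF/MultiBlast, ISM1/ISM2 and KSOM(aa).

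Enzymes around the set were described from 5 lists of neighbouring pathways, whose counts are to be read against the shares of all features given above (11.5% lower and 14.3% higher in ISM1/ISM2, 2.68% and 3.51% in HTF/MultiBlast). Against oviduct in ISM1/ISM2, 2 of 17 tested folate and glycine genes were lower and 1 higher. *Dld*, a subunit of the glycine cleavage system, fell by 1.02 on the log2 scale, with levels of 8.72, 8.42 and 9.14 in ISM1/ISM2 and 9.77, 9.52 and 10.06 in oviduct. *Gldc*, the decarboxylase of the same system, was higher by 0.55, and *Slc19a1*, a folate carrier, was lower (-0.92) with overlapping arrays. In HTF/MultiBlast 1 of the 17 was lower, *Fpgs*, which adds glutamates to folate (-0.94; adjusted p = 0.0498). The list's median difference in ISM1/ISM2 was -0.12, against 0.02 over all features.

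Of 10 tested aspartate and glutamine genes, 2 were lower and 1 higher in ISM1/ISM2. *Gpt2*, the mitochondrial alanine aminotransferase, had levels of 7.05, 6.83 and 6.79 in ISM1/ISM2 and 7.71, 8.11 and 8.41 in oviduct (-1.18; adjusted p = 0.00112), while its cytosolic counterpart *Gpt* was higher (1.18; adjusted p = 0.00398). *Glud1*, glutamate dehydrogenase, was detected on 0 ISM1/ISM2 arrays and was at least 1.31-fold lower there. It was also detected on 0 control arrays, with a similar difference that did not pass (-0.95; adjusted p = 0.162). In HTF/MultiBlast 2 of 10 were lower, *Gpt2* (-1.04) and the branched-chain aminotransferase *Bcat1* (-0.64), and 0 were higher. Of 7 tested proline and ornithine genes 0 were lower and 1 was higher in ISM1/ISM2, the mitochondrial arginase *Arg2* (2.18; adjusted p = 0.00191), with levels of 8.09, 7.90 and 8.25 in ISM1/ISM2 and 6.20, 4.90 and 6.61 in oviduct. In HTF/MultiBlast 0 of those 7 passed.

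The methionine and cysteine genes other than *Cbs* and *Cth* were higher where they passed. In ISM1/ISM2 5 of 11 were higher and 0 lower, and in HTF/MultiBlast 2 of 11 were higher and 0 lower. *Bhmt*, which makes methionine from homocysteine and betaine, had levels of 11.64, 10.48 and 10.77 in HTF/MultiBlast, 10.81 to 11.32 in ISM1/ISM2 and 8.96, 8.01 and 8.19 in oviduct. All 6 arrays of the first 2 groups were above the oviduct arrays, with differences of 2.58 ± 0.31 in HTF/MultiBlast and 2.66 ± 0.31 in ISM1/ISM2 (SE; adjusted p = 0.000615 and 5.26e-05). Its relative *Bhmt2* had levels of 9.07, 8.61 and 8.72 in ISM1/ISM2 and 4.48, 4.65 and 7.30 in oviduct, and *Ethe1*, which oxidizes sulphide, was higher by 1.79 in ISM1/ISM2. *Cdo1*, which oxidizes cysteine, was higher in HTF/MultiBlast (1.41; adjusted p = 0.0498), and its arrays overlapped those of oviduct.

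Of 9 tested glycolytic genes, of steps before and after phosphoglycerate, 2 were lower in ISM1/ISM2 and 1 in HTF/MultiBlast, KSOM(aa) and the control each. The platelet phosphofructokinase *Pfkp* was lower in all 4 groups. It had levels of 4.40, 4.77 and 4.71 in HTF/MultiBlast, 4.47, 4.52 and 4.37 in ISM1/ISM2, 4.43 and 5.73 in KSOM(aa) and 4.88, 4.82 and 4.70 in the control, against 6.89, 6.66 and 6.60 in oviduct. It was detected on 1 of these 11 arrays, in KSOM(aa), so it was at least 2.73-fold lower in HTF/MultiBlast, at least 2.53-fold lower in ISM1/ISM2 and at least 2.55-fold lower in the control. These 4 comparisons share the oviduct arrays. The liver form *Pfkl* fell by 1.24 in ISM1/ISM2 (adjusted p = 0.0187).

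The amino acid response regulators, a list chosen with its behaviour here already known, had 7 of 9 tested genes lower in ISM1/ISM2, 4 of 9 in HTF/MultiBlast and 0 of 9 in KSOM(aa) and in the control, with 0 higher. *Chac1*, an ATF4 target that degrades glutathione, had levels of 9.60, 10.08 and 9.49 in HTF/MultiBlast, 6.95, 5.19 and 5.94 in ISM1/ISM2 and 11.87, 12.02 and 11.17 in oviduct. *Nupr1*, a stress-induced chromatin protein, had levels of 6.68, 8.02 and 7.25 in HTF/MultiBlast and 10.84, 10.33 and 9.56 in oviduct, and was detected on 0 ISM1/ISM2 arrays (at least 29.1-fold lower). *Cebpb*, a CCAAT-enhancer binding protein, differed by -1.85 in HTF/MultiBlast and by -2.42 in ISM1/ISM2, both lower. The list's median was -1.52 in ISM1/ISM2 and -0.88 in HTF/MultiBlast.

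**Figure D4:**
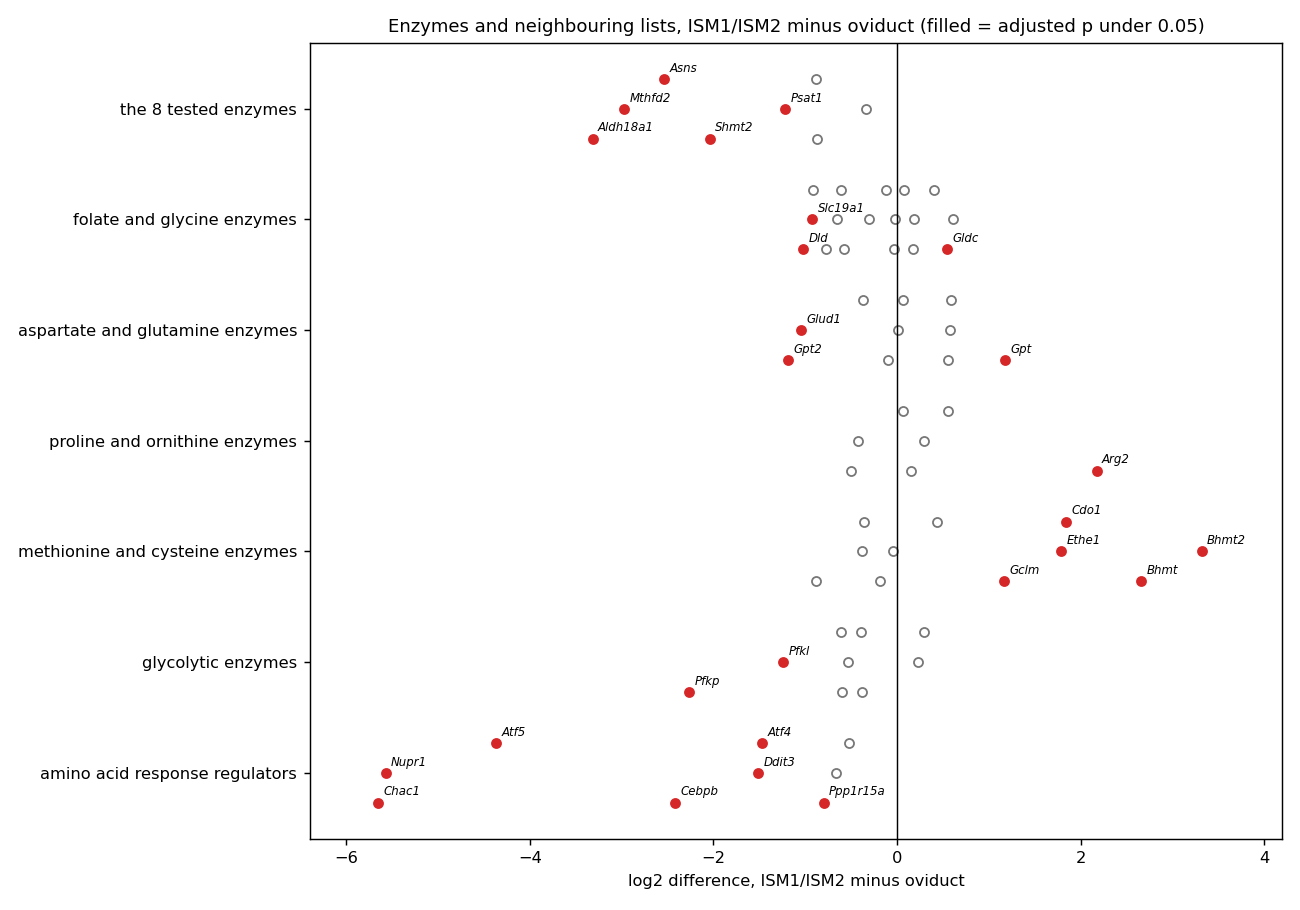
Log2 difference between ISM1/ISM2 and oviduct (x axis) of each tested gene, with 1 row for the enzymes and 1 for each neighbouring list, and filled, named points where the adjusted p was under 0.05. *Nupr1*, *Pfkp* and *Glud1* stand at fitted values, though they were not detected in ISM1/ISM2. The 5 enzymes that passed lie between -3.32 and -1.22, while the 5 methionine and cysteine genes that passed lie above 0.

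The mean profile of the 8 enzymes, each standardized over the 14 arrays, was compared with the 8017 other tested genes with a symbol. The median Pearson correlation was -0.02 and 66 genes exceeded 0.9. The most alike were *Sparc* (0.98), a matrix protein, *Lars* (0.97), the leucyl-tRNA synthetase, *Gramd4* (0.97), *Atf5* (0.96), a factor of the ATF4 family, *Prex1* (0.96), *Cebpb* (0.96), *Pccb* (0.95), a propionyl-CoA carboxylase subunit, and *Hspg2* (0.95), perlecan. *Sparc* averaged 8.35 in HTF/MultiBlast, 6.83 in ISM1/ISM2, 8.91 in KSOM(aa), 9.33 in the control and 9.84 in oviduct. Most like *Asns* alone were *Slc22a4*, *Herpud1*, *Lama1*, *Slc7a3* and *Slc1a4* (0.98 to 0.99), of which *Slc7a3* and *Slc1a4* carry amino acids. These correlations describe 14 arrays in 5 groups, and a difference between groups raises all of them.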

How the data were processed

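RNA (150 ng input, 12 h of in vitro transcription) was hybridised to Illumina bead arrays, per the labels. The deposited values hold an intensity for each probe, summarized over beads, and the deposited detection p-values rate it against that array's negative controls. The submitters' processing notes name BeadStudio 3.2, lumi and RMA without an order. The authors' log2 values, with a median of 2.89 per array and the same order of probes within an array as the intensities, served only as an alternative, and the offset behind their centre is not given in the sources used here.

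Intensities were background-corrected from the detection p-values and quantile-normalized in the manner of neqc (limma 3.58.1, R 4.3.3; offset 16) and put on the log2 scale, with a median of 4.69 per array. A probe was called detected at a detection p under 0.01 and tested where detected on at least 2 arrays (10975 of 25697 probes). Each symbol was represented by its tested probe with the highest mean, giving 8669 features, 8025 with a symbol and 644 without. One linear model of all 5 groups was fitted with limma (lmFit and eBayes), with degrees of freedom of 9 (residual) and 4.32 (prior), for 10 comparisons and an F test. Tests were two-sided, with Benjamini-Hochberg adjustment over all features of a comparison and a threshold of 0.05. Intervals are 95% and unadjusted. Where a group had 0 arrays with detection, the fold is a bound ("at least"): the brighter group's mean was set against the dim group's, with each dim array raised to its lowest detected signal where it lay below it. Such a bound refers to the means and does not include sampling error. The steps were tested on simulated data.

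The enzymes, neighbouring lists, markers and alternatives were chosen with earlier results of these data known. Named genes are all enzymes, up to 3 genes per list and main comparison with the smallest p among those past the threshold, the 8 genes most correlated with the enzymes' mean, the 5 most correlated with *Asns*, and the cell markers. Groups were taken from the titles. The series text calls replicates biological, but the 3 control arrays all carry replicate number 1 in their descriptions, so their spread may be technical, and an alternative averaged them to 1. Over all groups, deviations of same-numbered arrays correlated from -0.36 to 0.43 (26 pairs, median 0.03, 8 above 0.1), so numbers were not treated as pairs. Same-numbered KSOM(aa) arrays correlated at 0.43 and 0.19 with HTF/MultiBlast and at 0.11 and 0.19 with ISM1/ISM2. Between HTF/MultiBlast and ISM1/ISM2 the values were 0.02, 0.05 and -0.02. An alternative took the replicate number as a block. Promoters came from RefSeq (GRCm38.p6).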

Additional observations from a re-analysis of the deposited data

How the results depend on the processing

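Of 22 enzyme differences past the threshold, each recomputed under 24 alternatives, 482 of 528 recomputed values kept the call, 46 lost it and 0 reversed, and of 58 differences not past it 32 of 1372 recomputed values gained one. The ISM1/ISM2 differences from oviduct of *Psat1*, *Shmt2*, *Mthfd2* and *Aldh18a1* kept their calls in all 24, and that of *Asns* in 23, lost with its dimmest tested probe (adjusted p = 0.0511). For HTF/MultiBlast against oviduct, 3 enzymes became 0 with only these groups in the fit, 6 with array weights, and 0 to 4 when single arrays were left out (0 without HTF/MultiBlast replicate 1, 1 without HTF/MultiBlast replicate 3, 4 without either KSOM(aa) array or without oviduct replicate 3). For HTF/MultiBlast against the control, 2 enzymes became 1 with the authors' values, without a filter, or with the dimmest probe, 5 with only these groups or with array weights, 0 with the control arrays averaged to 1 (which also ended the call of *Psat1* between ISM1/ISM2 and the control, adjusted p = 0.106), and 0 to 4 when single arrays were left out. With the replicate number as a block this count was 1, and the block moved no other count of enzymes by over 1.5 times. For the control against oviduct, array weights gave 1 enzyme, *Cth* (adjusted p = 0.0343), in place of 0, and *Cth* also passed with array weights or 75th percentile scaling in ISM1/ISM2 and HTF/MultiBlast against oviduct. The causes were not tested. Groups of 2 or 3 arrays limit every interval, most of all in KSOM(aa), and signals near background limit *Phgdh*, *Psph* and *Cth*.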

Other observations

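*Cbs* had the widest interval of the 8 tested enzymes in every comparison with oviduct, as the fit shares a variance per gene over all groups. The low array was replicate 1 in HTF/MultiBlast, ISM1/ISM2 and KSOM(aa), at 6.51, 6.80 and 7.20. In the control and oviduct, replicate 1 read 8.20 and 8.72. Without KSOM(aa) replicate 1 the *Cbs* difference between KSOM(aa) and oviduct was 0.84, against -0.09 with both arrays. *Cth* read 4.79 on KSOM(aa) replicate 1, where it was not detected, and 6.46 on replicate 2.

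The mean standardized level of the 8 enzymes separated ISM1/ISM2 arrays (-1.28 to -0.98) from HTF/MultiBlast arrays (-0.74 to -0.08) and both from the control (0.38 to 0.54) and oviduct (0.51 to 1.07). KSOM(aa) spread from -0.15 on replicate 1 to 0.88 on replicate 2. Between these arrays *Cbs* (7.20 and 9.06) and *Cth* (4.79 and 6.46) differed most in log2 level. *Asns* read 13.13 and 13.21 on them, and *Psat1* 13.10 and 13.16. The mean gives all 8 enzymes equal weight, with *Phgdh* and *Cth* near background.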
